A study of Mus musculus with 12 samples.

Results

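The comparison described here asked for which genes the RNA response of C2C12 myoblasts to differentiation medium depended on the genotype label. Of 13250 genes tested, 1174 differed in that response between wild type (WT) and the cells that the labels call Mapk14 knockout (KO), which is 8.86% of the genes tested. All 12 libraries entered 1 model, and the members were the genes that passed its interaction term, defined as the log2 response (differentiation medium minus growth medium) of the KO-labelled cells minus that of the WT cells. A positive interaction therefore means that the response in the KO-labelled cells was the more positive. In 478 genes (3.61% of those tested) the interaction was positive, and in 696 (5.25%) it was negative, so that 40.7% of the calls were positive. Scaling by total counts alone gave 683 positive and 498 negative calls (57.8% positive). An interaction of at least 1 on the log2 scale was seen in 131 of the positive calls (0.989% of genes tested) and 137 of the negative ones (1.03%).

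C2C12 is an established mouse myoblast line that fuses into myotubes when serum is lowered. The libraries formed 4 groups of 3 labelled biological replicates, all from total RNA with a single batch date: WT cells in growth medium (GM, DMEM with 10% fetal bovine serum), WT cells in differentiation medium (DM, with 2% horse serum), and cells labelled Mapk14-/- in each of the same media, all after 5 days. The editing method and the number of clones were not given in the sources used here, so genotype and clone cannot be told apart. No information says whether replicates came from separate cultures, and p-values measure only the spread between these libraries. Totals were 8821669 to 11536396 counts per library.

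Mapk14 encodes p38 alpha, a stress-activated kinase that relays signals through MAPK-activated kinases to transcription factors and RNA-binding proteins. In myoblasts it is known for slowing the cell cycle and for promoting the muscle programme, partly through MEF2 factors and chromatin remodelling at muscle promoters, and it is also known to restrain JNK and ERK signalling. The muscle programme itself runs from Myod1 and Myf5 through Myog to sarcomere and fusion genes, while the cell cycle is shut off.

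The RNA of the targeted gene did not separate the genotype labels. Mapk14 (ENSMUSG00000053436) stood at 130.1, 135 and 108 CPM (edgeR's counts relative to library size, scaled by TMM throughout) in the WT GM libraries and at 130.3, 136 and 137 in the KO-labelled GM libraries. In DM it stood at 93.9, 91.2 and 88.7 CPM in WT and 93.8, 90.02 and 84.5 in KO-labelled cells, so the genotypes overlapped in both media. The response was -0.45 ± 0.08 (log2 ± SE) in WT and -0.59 ± 0.08 in KO-labelled cells, and the interaction of -0.14 ± 0.11 was not called (edgeR quasi-likelihood test, Benjamini-Hochberg adjusted p = 0.483). Gene-level counts show neither protein nor edited sequence, so the name KO-labelled is kept. Myoblast identity was seen in all 12 libraries: Myod1 ran from 65 CPM (mean of KO-labelled GM) to 155 (WT DM), and Des, the muscle intermediate filament, from 122 to 1790.1 CPM.

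The third library of both GM groups stood apart from its replicates. Replicate pairs that included it had a chi-square per degree of freedom of 10.2 to 15.4, against 3.64 to 6.62 for all other pairs. With both of these libraries left out, 2709 genes were called (1373 positive, 1336 negative), and 1148 of the 1174 members (97.8%) were among them. None of the 200 named genes that were tested changed direction under any of the 22 alternatives run for them.

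The 1174 genes fell into 5 shapes, read from the 2 simple responses of the same model, with a response taken as present at adjusted p below 0.05 (33.2% of all genes tested in WT and 40.6% in KO-labelled cells). A gained response, present in the KO-labelled cells and not called in WT, was the commonest shape, with 453 genes (38.6%). A lost response, called in WT and not in KO-labelled cells, had 287 genes (24.4%). An enhanced response, called in both with the same sign and larger in KO-labelled cells, had 248 genes (21.1%). Reversed responses, called in both with opposite signs, and blunted responses, of the same sign but smaller in KO-labelled cells, had 87 genes each (7.41%). In the remaining 12 genes (1.02%) neither response passed alone. These names follow from thresholds on the simple responses, so a lost response is one not detected, not one shown to be absent.

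**Figure D1:**
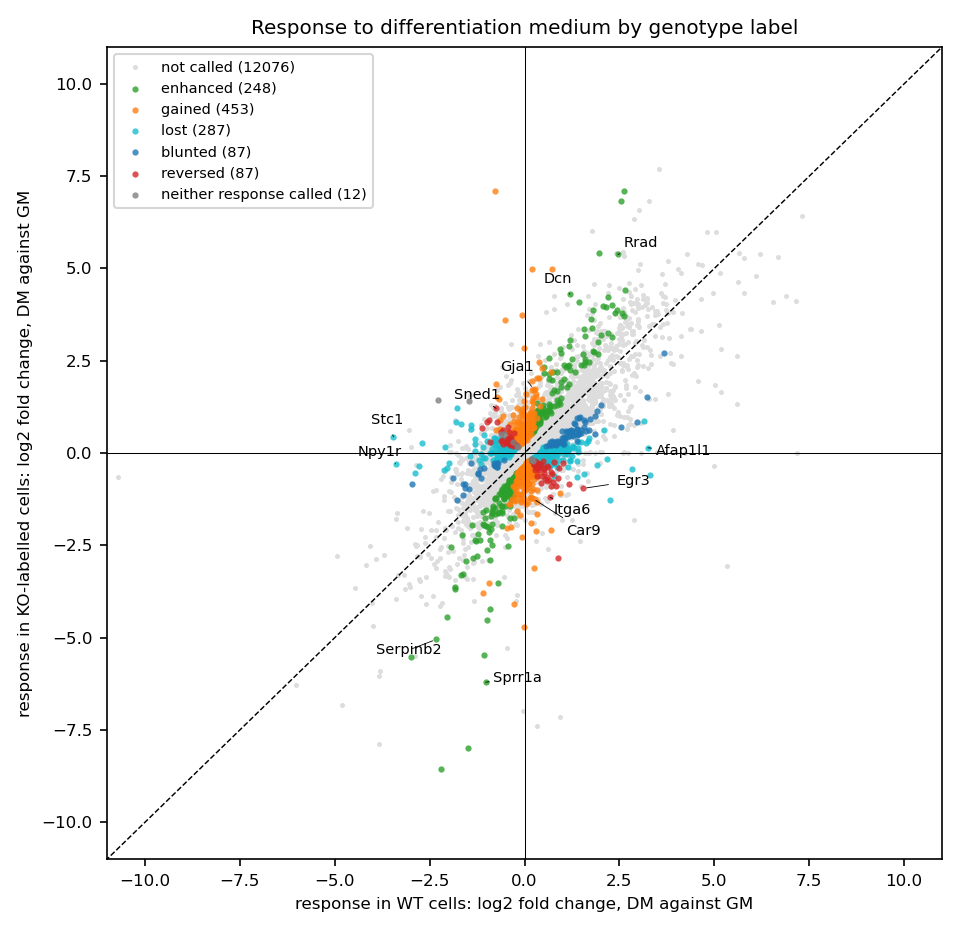
Log2 response to DM in WT cells (x axis) against that in KO-labelled cells (y axis), 1 point per gene tested, coloured by shape, with the dashed line marking equal responses. Reversed genes such as Egr3 and Sned1 lie in the quadrants of opposite sign, and the 12076 genes that were not called lie mostly along the line.

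Reversal occurred in both directions. In 55 reversed genes the response was positive in WT and negative in KO-labelled cells, with medians of 0.374 and -0.38 on the log2 scale. In the other 32 it was negative in WT and positive in KO-labelled cells, with medians of -0.431 and 0.327.

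Egr3, an immediate early zinc-finger transcription factor, had the largest interaction among these 55 genes at a mean of at least 10 CPM in 1 group, the level asked for of genes named by shape. Its level in WT was 10.5, 9.78 and 7.99 CPM in GM and 25, 27.99 and 28.5 in DM. In KO-labelled cells it was 12.2, 12.1 and 12.2 CPM in GM and 7.29, 5.51 and 6.04 in DM. The media did not overlap in either genotype, and the genotypes did not overlap in DM. Egr3 rose by 1.53 ± 0.14 in WT and its response in KO-labelled cells was -0.96 ± 0.15, an interaction of -2.49 ± 0.21 (edgeR, adjusted p = 3.07e-07). Its relative Egr1 moved the same way at a higher level, from 60.6 ± 3.32 to 113 ± 6.14 CPM (mean ± SD, n = 3) in WT and from 90.3 ± 8.83 to 67.8 ± 6.42 CPM in KO-labelled cells.

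Itga6, the integrin alpha subunit of laminin receptors, stood at 53.9, 59 and 44.01 CPM in WT GM and 80.1, 91.3 and 78.3 in WT DM. The KO-labelled libraries began higher, at 106, 107 and 71.7 CPM in GM, and ended lower, at 41.1, 41.4 and 41.7 in DM. The order of the genotypes was thus opposite in the 2 media, with an interaction of -1.87 ± 0.20 (edgeR, adjusted p = 5.76e-05). Its partner subunit Itgb1 crossed as well, from 965 to 1251 CPM in WT and from 1152 to 936 in KO-labelled cells. Cavin2, a caveolar coat protein, rose in WT from 61.3 ± 3.72 to 109 ± 10.03 CPM and fell in KO-labelled cells from 195 ± 41.1 to 104 ± 2.75, so that the gap between genotypes was seen in GM only. Hey1, a transcriptional repressor downstream of Notch, had an interaction of -2.01 ± 0.36 at levels under 12 CPM, and the matrix protein gene Adamtsl1 one of -1.51 ± 0.27.

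The opposite reversal was led by Sned1, a secreted matrix protein. WT cells had 23.04, 22.8 and 16.8 CPM in GM and 11.1, 10.8 and 15.2 in DM. KO-labelled cells had 18.4, 21.5 and 23.4 CPM in GM and 38.8, 48.5 and 59.4 in DM. The genotypes overlapped in GM and were fully apart in DM, and the interaction was 1.96 ± 0.24 (edgeR, adjusted p = 9.17e-05). Atoh8, a basic helix-loop-helix factor, crossed from 45.1 ± 4.69 to 27.2 ± 2.42 CPM in WT and from 28.6 ± 5.92 to 51.7 ± 4.87 in KO-labelled cells. Fam43a (1.80 ± 0.18), the atypical cadherin gene Fat4 (1.23 ± 0.17) and the extracellular chaperone Clu (1.83 ± 0.37) behaved alike. Igfbp3, which binds insulin-like growth factors outside the cell, fell from 28.9 ± 1.76 to 21.3 ± 2.80 CPM in WT and rose from 64.9 ± 5.68 to 105 ± 5.17 in KO-labelled cells. All 10 of the genes with the largest reversals in the 2 directions were called under every alternative run.

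Lost and blunted responses both left the KO-labelled cells with a smaller change. In 178 lost genes the WT response was positive (median 0.601, against -0.0434 in KO-labelled cells) and in 109 it was negative (median -0.585, against 0.11). In 65 blunted genes the WT response was positive (medians 1.22 and 0.523) and in 22 negative (medians -1.2 and -0.492).

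Afap1l1, which encodes an actin-filament-associated adaptor, had the largest lost rise. It stood at 1.23, 2.36 and 3.59 CPM in WT GM and at 24.8, 21.9 and 22.4 in WT DM. The KO-labelled libraries held 2.90, 2.69 and 3.28 CPM in GM and 4.05, 2.52 and 3.25 in DM, overlapping between media. The response was 3.25 ± 0.24 in WT and 0.14 ± 0.27 (adjusted p = 0.721) in KO-labelled cells, an interaction of -3.11 ± 0.37 (edgeR, adjusted p = 1.54e-05). Mboat2, an acyltransferase of phospholipid remodelling, had a WT rise from 4.92 ± 0.847 to 14.6 ± 1.82 CPM beside 6.61 ± 1.74 and 4.42 ± 1.11 in KO-labelled cells. Armcx4, Ulbp1 and Cdh2 (N-cadherin, a fusion-related adhesion protein) were of the same shape, with interactions of -1.51 ± 0.23, -1.39 ± 0.21 and -0.76 ± 0.10.

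Npy1r, the Y1 receptor for neuropeptide Y, was a lost fall. WT levels were 39.7, 39.9 and 45.5 CPM in GM and 5.53, 3.06 and 3.39 in DM. KO-labelled levels were 40.05, 31.3 and 46.3 CPM in GM and 35.7, 36.5 and 23.97 in DM. The WT response of -3.40 ± 0.23 was set against -0.29 ± 0.18 (adjusted p = 0.212), and the interaction was 3.11 ± 0.30 (edgeR, adjusted p = 2.43e-05). Npr3, the clearance receptor for natriuretic peptides, fell in WT from 22.1 ± 2.11 to 5.55 ± 0.668 CPM and stood at 17.2 ± 2.37 and 14.4 ± 1.54 in KO-labelled cells. For the transglutaminase gene Tgm5 the libraries differed in GM instead, with 10.9, 11.5 and 9.48 CPM in WT and 1.61, 3.29 and 1.77 in KO-labelled cells. Stc1, encoding the hormone stanniocalcin, had an interaction of 3.90 ± 0.83 (edgeR, adjusted p = 0.0241), but its WT GM libraries held 60.5, 82.96 and 169.9 CPM. Its adjusted p ran from 1.94e-15 to 0.073 over the alternatives, and leaving out any WT DM library, any KO-labelled DM library or KO-labelled GM replicate 1 ended the call.

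Among blunted rises, Shroom3, which shapes epithelial cells through apical actin, had 3.09, 2.58 and 4.09 CPM in WT GM and 20.1, 19.2 and 18.5 in WT DM. KO-labelled libraries had 3.11, 4.42 and 3.28 CPM in GM and 6.79, 5.32 and 5.76 in DM. The genotypes overlapped in GM and not in DM, and the responses were 2.55 ± 0.20 and 0.71 ± 0.21 (interaction -1.84 ± 0.29; edgeR, adjusted p = 0.000336). Nes, an intermediate filament of muscle and neural progenitors, was blunted too (-0.60 ± 0.10). Nes reached 1614 CPM in WT DM and 971 in KO-labelled DM from 693 and 633 in GM. Blunted falls included Cd14, a coreceptor for lipopolysaccharide (1.23 ± 0.21), Serpine2, a protease inhibitor (1.15 ± 0.13), and the orphan nuclear receptor gene Nr4a1 (0.78 ± 0.20), whose call was lost without KO-labelled GM replicate 2 or KO-labelled DM replicate 1 (highest adjusted p 0.0647).

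Gained responses were more often falls (257 genes, median -0.531 in KO-labelled cells and 0.016 in WT) than rises (196 genes, medians 0.609 and -0.054). Gja1, the gap junction protein connexin 43, was chosen for display after its values were seen. Its levels were 239, 234 and 277 CPM in WT GM, 270.3, 299 and 322 in WT DM and 236, 232 and 312 in KO-labelled GM, and these 3 groups overlapped. The KO-labelled DM libraries stood above all others, at 814, 889 and 864 CPM, and the interaction was 1.47 ± 0.14 (edgeR, adjusted p = 3.85e-06).

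Mmp3, a matrix-degrading protease, held 1.98 ± 0.807 and 1.27 ± 0.822 CPM in WT GM and DM and rose from 11.01 ± 1.51 to 30.3 ± 3.79 CPM in KO-labelled cells. Mmp2, the gelatinase, showed the same shape at a far higher level, from 1183 to 2322 CPM in KO-labelled cells beside 1266 and 1324 in WT. Cxcl16, a chemokine, reached 12.5, 13.8 and 11.98 CPM in KO-labelled DM, with every other library under 4 CPM. Fmo1, a flavin monooxygenase, and Tent5c, a poly(A) polymerase, had interactions of 1.71 ± 0.33 and 1.57 ± 0.38. For Fmo1 the third GM library of KO-labelled cells, at 48.3 CPM, lay above the other 2 of its group (26.8, 24.9 and 48.3).

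Among gained falls, Car9, a cell-surface carbonic anhydrase induced by hypoxia, held 102, 105 and 97.6 CPM in WT GM and 127, 116 and 108 in WT DM. It stood at 133, 143 and 125 CPM in KO-labelled GM, above WT, and at 55.4, 68.3 and 47.8 in KO-labelled DM, below WT. The interaction was -1.43 ± 0.14 (edgeR, adjusted p = 2.03e-06). Nptx1, a secreted pentraxin of neurons, crossed in the same way, from 54.2 ± 14.4 to 12.7 ± 1.00 CPM in KO-labelled cells, and had an interaction of -2.78 ± 0.38. Cadm4, an adhesion molecule, and Klf2, a zinc-finger factor, were already lower in KO-labelled GM and fell further (-1.98 ± 0.35 and -1.67 ± 0.26). Ret, the receptor for GDNF-family ligands, had 2.53, 0.187 and 0.836 CPM in KO-labelled DM, and its call (adjusted p = 0.0413) ended under 8 of the 22 alternatives, whose adjusted p ran from 0.000412 to 0.117.

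**Figure D2:**
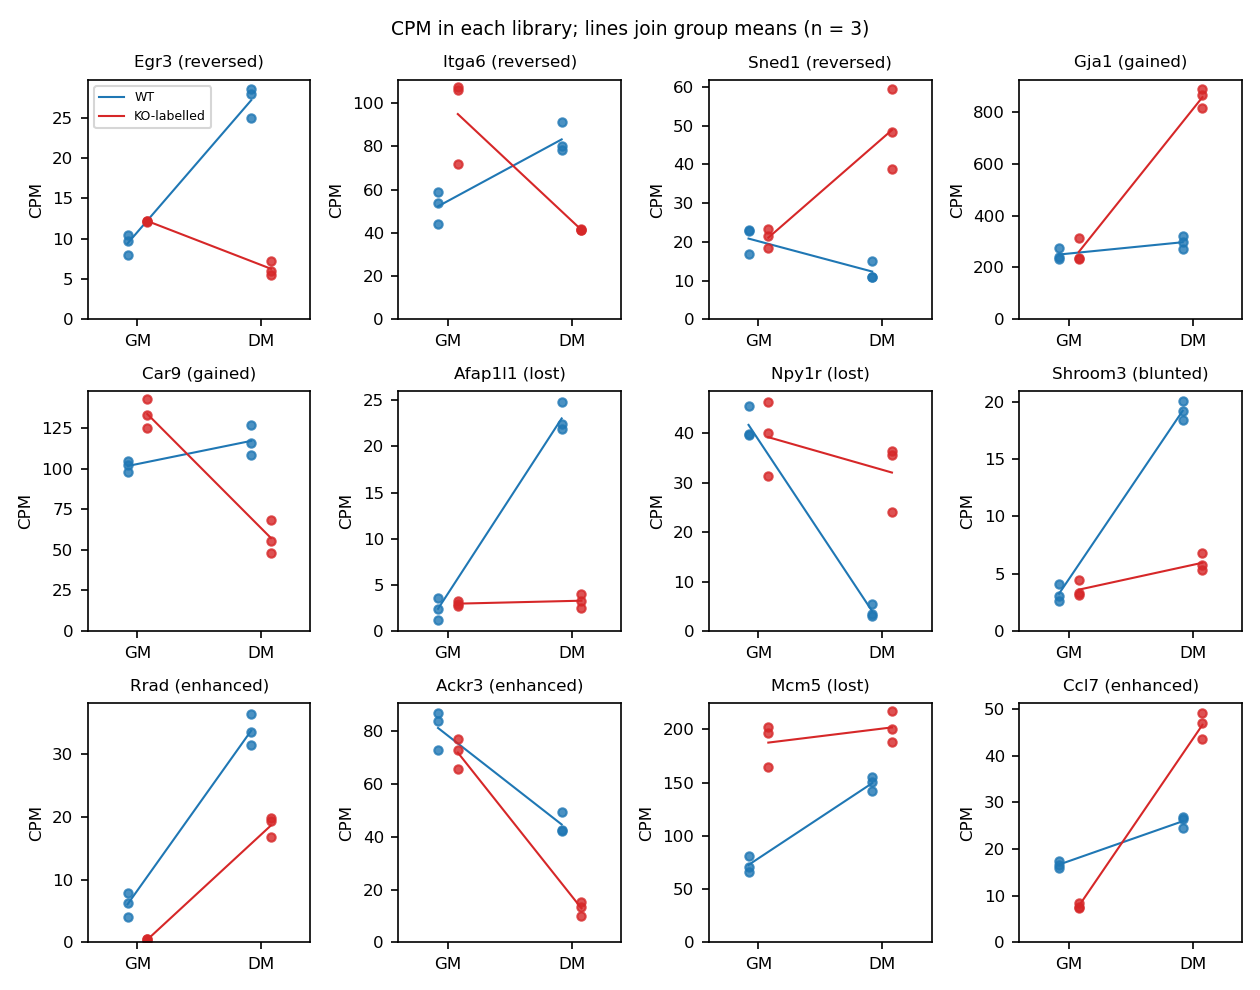
CPM (y axis) of 12 genes in each of the 12 libraries, grouped by genotype label and medium, with lines joining the group means. Egr3, Itga6 and Sned1 were reversed, Gja1 and Car9 gained, Afap1l1, Npy1r and Mcm5 lost, Shroom3 blunted, and Rrad, Ackr3 and Ccl7 enhanced. The lines of the 2 genotypes differ in slope in each panel.

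Enhanced responses were rises in 112 genes (median 0.818 in WT and 1.79 in KO-labelled cells) and falls in 136 (medians -0.531 and -1.14). Rrad, a small GTPase that inhibits calcium channels, was among the largest of these rises. It held 6.27, 4.08 and 7.88 CPM in WT GM and 36.4, 31.5 and 33.5 in WT DM. KO-labelled libraries held 0.537, 0.173 and 0.621 CPM in GM, 14 counts in all, and 19.9, 19.3 and 16.8 in DM. The interaction of 2.91 ± 0.39 (edgeR, adjusted p = 6.01e-05) therefore arose with KO-labelled cells below WT in both media, and the gap was -3.77 ± 0.33 in GM and -0.86 ± 0.16 in DM. Dcn, the small matrix proteoglycan decorin, followed this course with 0.107, 0.260 and 0.355 CPM (8 counts) in KO-labelled GM and 5.17, 4.01 and 6.22 in DM, beside 15.9 ± 5.04 and 36.4 ± 1.91 in WT. The sizes of these interactions are uncertain, because KO-labelled GM was near the floor for both genes.

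Smpx, a small muscle protein, was the extreme of this kind: KO-labelled GM held 1 count over its 3 libraries, and KO-labelled DM held 4.96, 3.64 and 6.22 CPM, beside 2.47, 3.76 and 6.19 in WT GM and 24.9, 25.9 and 22.1 in WT DM. Its interaction was called (adjusted p = 0.0039), but no fold is given for it because it rests on a group at the floor. Ccl7, a monocyte-attracting chemokine, crossed instead. It went from 16.7, 16.01 and 17.4 to 26.4, 26.97 and 24.6 CPM in WT and from 7.62, 7.28 and 8.51 to 43.6, 49.2 and 47.1 in KO-labelled cells, an interaction of 1.94 ± 0.16 (edgeR, adjusted p = 3.07e-07). Igfbp5, an insulin-like growth factor binding protein of differentiating muscle, rose from 118, 125 and 194 to 633, 674 and 673 CPM in KO-labelled cells and from 712, 681 and 643 to 913, 1048 and 922 in WT.

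Sprr1a had the largest fitted interaction among the enhanced falls of at least 10 CPM in a group. This gene, which encodes a cornified-envelope protein that is also induced by stress, held 23.97, 22.7 and 11.98 CPM in WT GM and 8.99, 10.2 and 9.58 in WT DM. It had 15.03, 17.4 and 12.7 CPM in KO-labelled GM and 0.203, 0.280 and 0.0929 in KO-labelled DM, where 6 counts were seen over 3 libraries. The genotypes overlapped in GM and were apart in DM (interaction -5.19 ± 0.50; edgeR, adjusted p = 2.03e-06). The size of this interaction is uncertain, because it rests on a group at the floor. Has1, a hyaluronan synthase, and Prr9 ended at 6 and 5 counts in KO-labelled DM. Ackr3, a scavenging chemokine receptor chosen after its values were seen, fell from 81.2 ± 7.37 to 44.7 ± 3.98 CPM in WT and from 71.9 ± 5.67 to 12.9 ± 2.82 in KO-labelled cells. Hmga2, a chromatin protein of proliferating progenitors, fell in both genotypes, with an interaction of -1.81 ± 0.35. Close paralogs of Sprr1a, Prl2c3, Saa3 and the Serpinb and H2 genes can share reads, so the split between family members is uncertain.

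Where the genotypes stood apart was read from the 2 genotype contrasts of the same model, as a description. Of the 1174 genes, 598 (50.9%) differed between genotypes in DM only and 270 (23%) in GM only. Another 116 (9.88%) differed in both media with the wider gap in DM, 59 (5.03%) in both with the wider gap in GM, and 94 (8.01%) crossed, with opposite gaps in the 2 media. In 37 (3.15%) neither gap passed. A gap in DM only was the commonest in each of the 5 shapes. It was seen in 275 of 453 gained genes (60.7%), and in 138 of 287 lost genes (48.1%), of which another 92 (32.1%) were apart in GM only. Reversed genes crossed in 23 of 87 (26.4%). Differences between shapes were not tested. Over all 13250 genes, 20.7% had a called gap in GM and 31% in DM.

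**Figure D3:**
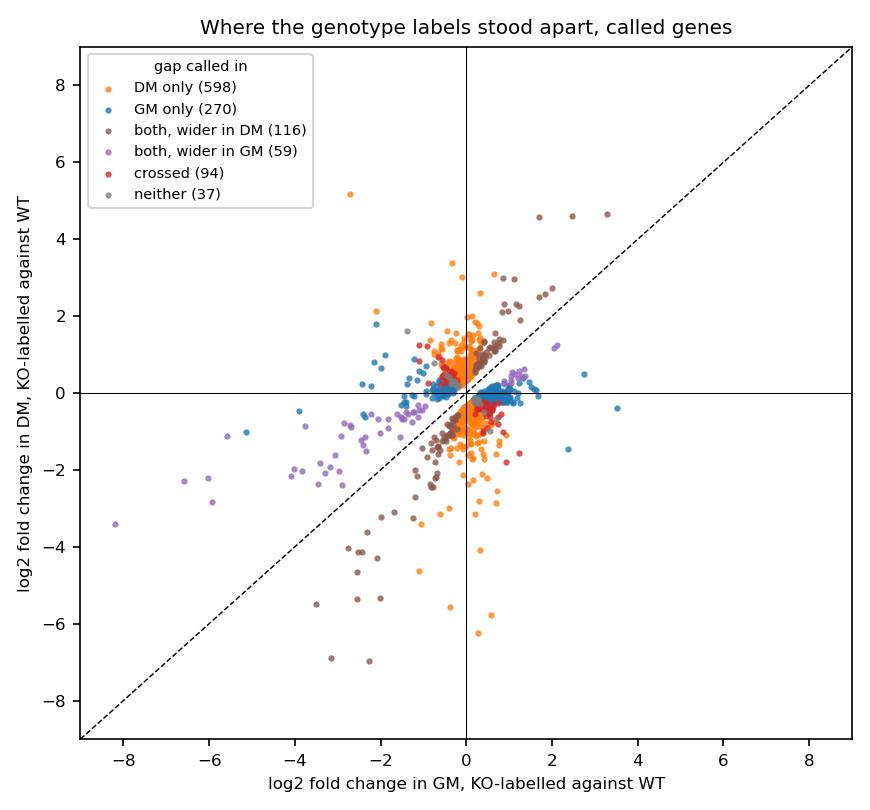
Log2 gap between KO-labelled and WT cells in GM (x axis) against the gap in DM (y axis) for the 1174 called genes, coloured by where a gap was called. The 598 genes apart in DM only lie near the vertical axis, and the 94 crossed genes lie in the quadrants of opposite sign.

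Genes of DNA replication were called in a single direction. Among 41 gene lists, chosen with earlier results of these data known, the S phase list had 40 tested members, of which 27 were called, all with a negative interaction and 0 with a positive one (35 negative and 0 positive at an unadjusted p below 0.05). All 40 were fitted below 0, with a median of -0.644, against 51.6% below 0 and a median of -0.0118 over all genes tested. For this list and those below, the counts stand against 3.61% of all genes tested called positive and 5.25% negative. Some genes, such as Egr1, Smad6 and Hey1, belong to more than 1 list, so counts of different lists are not independent. Of the 27, 19 were lost, 6 blunted and 2 reversed. The median response of the list was 0.79 in WT and 0.162 in KO-labelled cells, and the median gap was 0.576 in GM and -0.081 in DM. The count was 22 without WT GM replicate 2 and 33 without both GM replicate 3 libraries.

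Mcm5, a subunit of the replicative helicase, stood at 70.7, 66.2 and 81.3 CPM in WT GM and 155, 151 and 142 in WT DM. The KO-labelled libraries held 202, 196 and 164 CPM in GM and 217, 200.3 and 188 in DM. WT was thus the lower genotype in both media, and by far more in GM, with an interaction of -0.93 ± 0.12 (edgeR, adjusted p = 5.76e-05). The helicase subunit Mcm3 and the licensing factor Cdc6 were reversed. Cdc6 rose from 22.8 ± 1.66 to 46.1 ± 0.826 CPM in WT and fell from 51.6 ± 4.47 to 42.5 ± 4.04 in KO-labelled cells. Ccne2, a cyclin of S phase entry (-1.12 ± 0.20), Uhrf1, which recognises hemimethylated DNA (-0.92 ± 0.12), and Chaf1b, a histone chaperone subunit (-1.06 ± 0.16), had the other largest interactions.

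Mitosis genes did not share this pattern to the same extent. Of 38 tested members 1 was called, Cdk1 (-0.50 ± 0.14, edgeR, adjusted p = 0.0275, 0.0014 to 0.108 over the alternatives), and the median was -0.179. Median responses were 1.51 in WT and 1.39 in KO-labelled cells. Without WT GM replicate 3 the count was 9, and without both GM replicate 3 libraries it was 10; for Mki67, a proliferation marker, that WT GM library held 36.4 CPM beside 17.5 and 18.6. The difference between the replication and mitosis lists was not tested.

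Promoters of the called replication genes carried an E2F-type motif more often than promoters of all tested genes. Replication genes that were not called were not compared. RefSeq promoter sequences of build GRCm38.p6 (250 bases before to 50 after the start site) matched 9860 of the tested genes and 880 of the members, and were searched on both strands for the letters TTTGGCG, from the recognition sequence of E2F factors, which drive S phase genes. The motif was in 8 of the 23 matched promoters of called replication genes (34.8%), against 2.63% of promoters of tested genes and 1.59% of all 27025 promoters in the table. The motifs described here were picked from a longer search after their shares were seen, and a match is a description of the letters, not of binding. The promoters of Mcm3 (chr1:20820263-20820562, minus strand) and Mcm5 (chr8:75109259-75109558, plus strand) are printed because both genes are described above and hold the motif, which is in capitals on whichever strand it lies.
Mcm3: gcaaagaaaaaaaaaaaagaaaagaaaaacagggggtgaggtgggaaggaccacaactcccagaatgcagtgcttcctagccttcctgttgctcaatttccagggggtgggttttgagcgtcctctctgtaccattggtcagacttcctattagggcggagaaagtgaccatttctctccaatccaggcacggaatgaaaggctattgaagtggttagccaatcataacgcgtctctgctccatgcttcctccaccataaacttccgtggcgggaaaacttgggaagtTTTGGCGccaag
Mcm5: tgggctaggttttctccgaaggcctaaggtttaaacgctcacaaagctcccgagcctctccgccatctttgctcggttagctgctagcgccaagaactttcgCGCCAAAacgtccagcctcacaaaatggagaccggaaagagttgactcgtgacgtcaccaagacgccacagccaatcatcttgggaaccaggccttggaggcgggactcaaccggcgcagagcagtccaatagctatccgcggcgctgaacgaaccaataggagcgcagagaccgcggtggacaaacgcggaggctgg

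In Mcm5 the match begins at -148 from the start site and in Mcm3 at 39. Blunted rises as a whole had the motif in 12.5% of 48 matched promoters and lost rises in 9.16% of 131, groups that include these replication genes.

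Glycolytic and hypoxia-inducible genes, many of them controlled by HIF factors, were called with the more negative response in KO-labelled cells. Of 33 tested members 18 were called with a negative interaction (12 enhanced, 6 gained) and 0 with a positive one, and 30 were fitted below 0 (median -0.404). At an unadjusted p below 0.05 there were 24 negative and 1 positive. The median response was -0.284 in WT and -0.721 in KO-labelled cells. Without KO-labelled DM replicate 3 the count fell to 10, and the range over the other single libraries left out ended at 20.

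Car12, another membrane carbonic anhydrase, had 6.69, 7.20 and 8.38 CPM in WT GM, 7.95, 8.38 and 10.2 in WT DM and 8.48, 8.15 and 9.13 in KO-labelled GM, which overlap. In KO-labelled DM it held 0.811, 1.21 and 0.929 CPM, and the interaction was -3.36 ± 0.31 (edgeR, adjusted p = 9.33e-07). Egln3, a prolyl hydroxylase that marks HIF for degradation, held 219.6 ± 6.89 and 238 ± 6.18 CPM in WT and fell from 246 ± 2.86 to 141 ± 9.22 in KO-labelled cells. Ero1l, an oxidase of the endoplasmic reticulum, crossed, from 171 ± 13.7 to 113 ± 4.67 CPM in WT and from 242 ± 14.2 to 79.02 ± 11.4 in KO-labelled cells. Pfkm, the muscle phosphofructokinase, from the muscle energy list, rose in both, from 82.1 ± 6.51 to 214 ± 1.73 CPM in WT and from 80.1 ± 5.15 to 113 ± 2.68 in KO-labelled cells, a blunted rise.

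Among sterol synthesis genes, targets of SREBP factors, the called responses were blunted or lost. Of 23 tested members 7 were called, all with a negative interaction (4 blunted, 3 lost; median -0.289). The 7 include Dhcr7, an enzyme of late cholesterol synthesis, which went from 32.6 ± 7.44 to 51.9 ± 4.15 CPM in WT and stood at 31.1 ± 6.28 and 24.3 ± 1.36 in KO-labelled cells. The sterol carrier gene Stard4 was among them as well (-1.02 ± 0.21). Idi1 and Msmo1 were blunted with smaller interactions (-0.71 ± 0.20 and -0.66 ± 0.17). The call of Idi1 was lost under 8 of the 22 alternatives and that of Msmo1 without WT DM replicate 3 or KO-labelled GM replicate 1 (highest adjusted p 0.113 and 0.0672). The count was 4 without WT DM replicate 3.

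**Figure D4:**
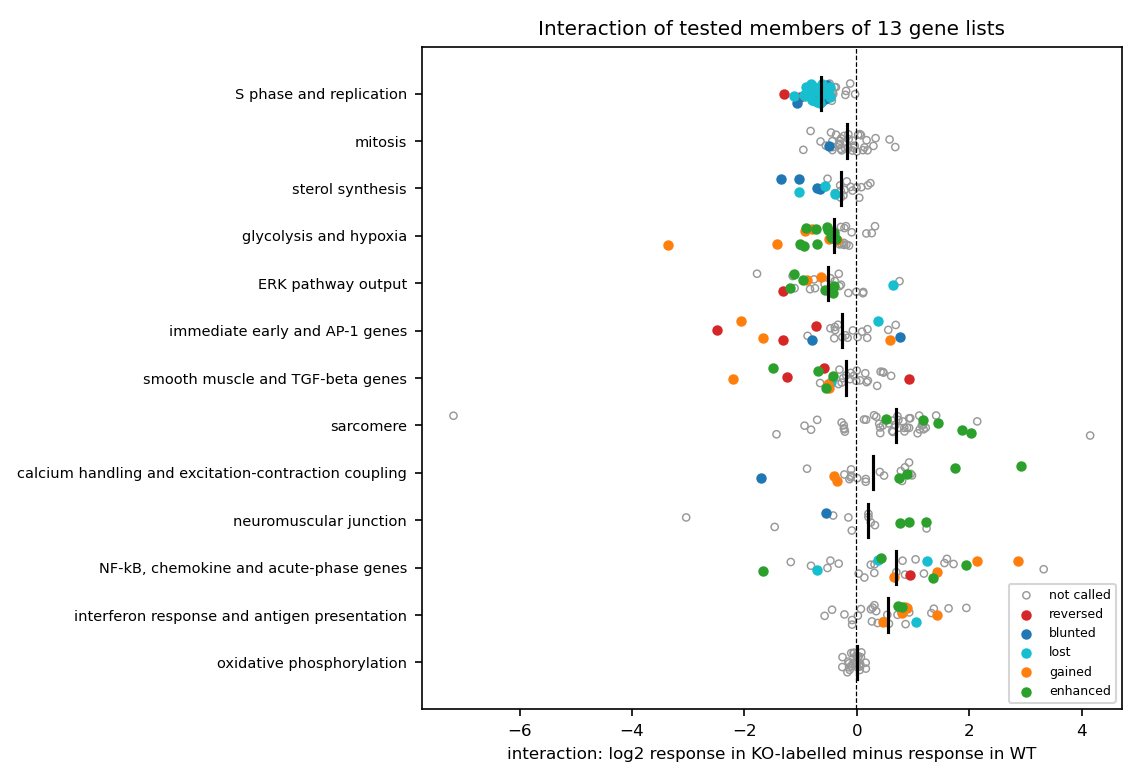
Interaction (log2, x axis) of every tested member of 13 gene lists, 1 point per gene, with a bar at each list's median. The 40 S phase genes all lie below 0, the interferon and NF-kB lists lie mostly above 0, and the oxidative phosphorylation list lies close to 0.

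Transcriptional outputs of ERK signalling, which p38 is known to restrain, had 9 of 28 tested members called with a negative and 1 with a positive interaction (median -0.518). Dusp6, a phosphatase that inactivates ERK, fell from 92.7, 93.2 and 67.9 to 41.01, 35.5 and 28.8 CPM in WT and from 94.05, 108 and 86.01 to 19.96, 18.1 and 16.9 in KO-labelled cells (-1.12 ± 0.20; edgeR, adjusted p = 0.00272). The KO-labelled DM libraries were below all WT DM libraries, and the genotypes overlapped in GM. The ETS factor gene Etv4 (-1.18 ± 0.17) and Hbegf, a ligand of the EGF receptor (-0.96 ± 0.17), were enhanced falls too, and the phosphatase gene Dusp4 a gained one (-0.88 ± 0.19). The positive one was Spry2, a feedback inhibitor of receptor tyrosine kinases, which fell in WT from 59.1 ± 2.22 to 37.7 ± 2.63 CPM and stood at 60.4 ± 5.43 and 59.9 ± 2.33 in KO-labelled cells. Egfr, the receptor itself, was a lost fall as well (0.54 ± 0.12). The negative count of 9 fell to 6 without KO-labelled GM replicate 2 and to 7 with scaling by total counts alone. It was 11 by DESeq2, 10 by limma-voom and 18 with the replicate number as a block.

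Immediate early and AP-1 genes were mixed, with 6 of 25 called negative and 3 positive (median -0.258). The negative ones were led by the Egr family: beside Egr3 and Egr1, Egr2 held 8.17 ± 1.08 and 9.14 ± 0.447 CPM in WT and fell from 7.75 ± 0.358 to 2.07 ± 0.231 in KO-labelled cells. The 3 positive calls were fragile, with 0 left without KO-labelled GM replicate 2 and 1 without KO-labelled DM replicate 1.

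Of 23 tested members of the p38 pathway itself 4 were called (17.4%, against 8.86% of all genes tested), 2 positive and 2 negative (median -0.0911). Dusp1, a phosphatase that inactivates p38 and JNK, held 57.6 ± 2.73 and 49.2 ± 2.44 CPM in WT and rose from 26.4 ± 4.15 to 39.5 ± 4.08 in KO-labelled cells (0.80 ± 0.15; edgeR, adjusted p = 0.00159). Dusp10, another phosphatase of p38, had the opposite sign (-0.79 ± 0.14) and fell from 47.02 ± 4.32 to 21.9 ± 1.04 CPM in KO-labelled cells. Calls of Hspb1, a small heat shock protein downstream of p38, and Zfp36, an RNA-destabilising protein, were each lost under 10 of the 22 alternatives (highest adjusted p 0.118 and 0.116). The kinase paralogs Mapk11 (0.15 ± 0.20) and Mapk12 (-0.37 ± 0.20) were not called.

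Smooth muscle and TGF-beta genes, many of them targets of serum response factor, had 10 of 31 tested members called with a negative and 1 with a positive interaction (median -0.188). Actg2, smooth muscle gamma-actin, had 192, 185 and 200.5 CPM in WT GM and 143, 174 and 163 in WT DM. KO-labelled libraries had 126, 131 and 99.6 CPM in GM and 35.7, 35.02 and 34.4 in DM, an interaction of -1.50 ± 0.13 (edgeR, adjusted p = 5.14e-07). Tagln, the actin-bundling protein transgelin, was reversed, from 418 ± 65.6 to 626 ± 20.2 CPM in WT and from 470.1 ± 42.8 to 298 ± 25.7 in KO-labelled cells. Cnn1, the actin-binding protein calponin, was a gained fall, from 2.37 ± 0.110 to 0.474 ± 0.147 CPM in KO-labelled cells. Its mean reached 10 CPM in WT only, and the KO-labelled DM mean was close to the floor. Inhba, the activin A subunit (-0.70 ± 0.13), and its antagonist gene Fstl3 (-0.58 ± 0.13) were negative, and the inhibitory Smad6 was the positive call (0.93 ± 0.19). Of 8 matched promoters of the negative genes, 2 (25%) held a CArG box, the recognition sequence of serum response factor, against 1.35% of promoters of tested genes and 1.57% of all; the 2 belong to Vcl and Myl9, named here after their values were seen.

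The proliferin, Sprr and Serpin list had 5 of 13 tested members called negative and 2 positive (median -0.811). Serpinb2, an inhibitor of plasminogen activators, went from 27.4, 25.2 and 19.1 to 4.26, 5.72 and 4.29 CPM in WT. In KO-labelled cells it began higher, at 56.8, 48.5 and 32.1 CPM, and ended lower, at 1.11, 1.21 and 1.76, an interaction of -2.73 ± 0.39 (edgeR, adjusted p = 0.000369). Prl2c3, a proliferin, was called at adjusted p = 0.0413 and lost under 12 of the 22 alternatives, whose values ran from 5.92e-09 to 0.136. The negative count of 5 was 2 or 3 with any 1 of 9 libraries left out: it was 3 without WT GM replicate 1, KO-labelled GM replicate 2 or KO-labelled DM replicate 2, and 2 without WT GM replicate 2, WT DM replicate 1 or 2, KO-labelled GM replicate 1 or KO-labelled DM replicate 1 or 3.

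An AP-1 motif (TGANTCA, either strand), the recognition sequence of Fos and Jun dimers, was in 3 of 5 matched promoters of the negative genes (60%). It was in 11.4% of 105 promoters of all enhanced falls, against 4.96% of promoters of tested genes and 7.93% of all. The promoters of Sprr1a (chr3:92485832-92486131, minus strand) and Serpinb2 (chr1:107511173-107511472, plus strand), the 2 genes with the largest interactions among the list's negative calls, are printed with these matches in capitals, at -146 and -116 in Sprr1a and at -94 in Serpinb2.
Sprr1a: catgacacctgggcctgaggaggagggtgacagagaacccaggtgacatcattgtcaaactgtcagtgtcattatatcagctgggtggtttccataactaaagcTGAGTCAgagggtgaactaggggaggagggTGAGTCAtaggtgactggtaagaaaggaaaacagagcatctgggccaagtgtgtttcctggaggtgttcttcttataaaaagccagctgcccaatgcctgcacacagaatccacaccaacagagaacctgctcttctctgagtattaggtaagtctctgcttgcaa
Serpinb2: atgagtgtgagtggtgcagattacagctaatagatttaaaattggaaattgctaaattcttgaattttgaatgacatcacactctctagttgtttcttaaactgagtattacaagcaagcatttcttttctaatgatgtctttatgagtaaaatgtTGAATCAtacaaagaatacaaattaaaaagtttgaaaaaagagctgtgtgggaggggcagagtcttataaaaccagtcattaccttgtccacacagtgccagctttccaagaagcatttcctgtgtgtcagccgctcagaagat

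Muscle structural genes had positive median responses in both genotypes, and few passed the interaction test. Of 48 tested sarcomere genes 5 were called (10.4%, near the 8.86% of all genes tested), all of them enhanced rises (11 positive and 2 negative at an unadjusted p below 0.05), and the median interaction was 0.704. The median response was 2.61 in WT and 3.42 in KO-labelled cells, and the median gap between genotypes was -2.09 in GM and -1.45 in DM, so KO-labelled levels stayed below WT in both. In bulk samples, fewer myotubes and less RNA per myotube cannot be told apart. The count depended on single libraries: it was 1 without KO-labelled GM replicate 2, 2 without KO-labelled GM replicate 1, 3 without WT GM replicate 2 or KO-labelled DM replicate 1, 14 without KO-labelled GM replicate 3, and 23 without both GM replicate 3 libraries. The summed level of the list was 3290 and 3520 CPM in the first 2 WT GM libraries and 4970 in the third.

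Smyd1, a methyltransferase that folds and assembles myosin, kept its call under every alternative. It held 8.64, 9.03 and 13.6 CPM in WT GM and 57.4, 54.5 and 58.3 in WT DM. KO-labelled libraries held 0.966, 1.04 and 1.69 CPM in GM and 17.8, 19.3 and 18.5 in DM, an interaction of 1.45 ± 0.28 (edgeR, adjusted p = 0.00213). Myl1, a myosin light chain, rose from 110.4 ± 48.3 to 509 ± 39.5 CPM in WT and from 6.89 ± 3.02 to 129 ± 9.87 in KO-labelled cells, but its call (adjusted p = 0.0423) was lost under 11 of the 22 alternatives (0.000699 to 0.099). Des and Klhl40, a thin-filament stabiliser, were called at 0.52 ± 0.14 and 1.18 ± 0.29. Des lost its call without KO-labelled GM replicate 1 or 2 or KO-labelled DM replicate 1, and Klhl40 without KO-labelled GM replicate 2 (highest adjusted p 0.054 and 0.0516). Actin Acta1 (1.19 ± 0.55, adjusted p = 0.24) and embryonic myosin Myh3 (0.13 ± 0.58, adjusted p = 0.929) were not called.

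At the neuromuscular junction, where nerve meets muscle, 3 of 14 tested genes were positive and 1 negative (median 0.207). This was 21.4% and 7.14% of the list, against 3.61% and 5.25% of all genes tested. Musk, the kinase that clusters acetylcholine receptors, went from 17.3, 16.2 and 20.1 to 40.2, 42.7 and 37.02 CPM in WT. In KO-labelled cells it went from 2.36, 2.43 and 5.41 to 20.1, 18.02 and 16.4 CPM, an interaction of 1.23 ± 0.27 (edgeR, adjusted p = 0.00683). Chrnd, a subunit of that receptor, was enhanced as well (0.94 ± 0.15), and Ncam1, an adhesion molecule, was the blunted one (-0.55 ± 0.11). The positive count was 5 without KO-labelled GM replicate 3. Of 24 calcium-handling genes 4 were positive and 3 negative: Jsrp1, a junctional membrane protein (0.89 ± 0.19), and Cacnb1, a calcium channel subunit (0.74 ± 0.16), joined Rrad, whereas the calcium store protein gene Casq1 was blunted (-1.70 ± 0.51), a call lost under 11 of the 22 alternatives (0.0011 to 0.184).

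Among the regulators, Myod1 was itself an enhanced rise. It held 138, 135 and 111 CPM in WT GM and 150.1, 169 and 146 in WT DM, without overlap, and 62.6, 67.95 and 64.5 and 132, 126 and 112 CPM in KO-labelled cells. The interaction was 0.64 ± 0.12 (edgeR, adjusted p = 0.00246). Myog, the differentiation regulator, had 127, 143 and 219.7 and 658, 592 and 595 CPM in WT and 31.4, 16.8 and 45.9 and 316, 294 and 287 in KO-labelled cells, and its interaction of 1.34 ± 0.45 was not called (adjusted p = 0.111, 0.0141 to 0.209 over the alternatives). Myf5 (-0.60 ± 0.25, adjusted p = 0.133) was not called. Mef2c was at 0 counts in all 3 KO-labelled GM libraries and at 1.11, 0.654 and 1.76 CPM in KO-labelled DM, beside 5.76, 7.20 and 14.6 and 68.1, 84.3 and 73.04 in WT, and was not called (adjusted p = 0.449).

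The inhibitors of differentiation that block MyoD partners did not move together. Id3 fell in WT from 198, 205 and 178 to 106, 103 and 109 CPM and stood at 145, 135 and 158 and 155, 151 and 163 in KO-labelled cells, a lost fall with an interaction of 0.97 ± 0.11 (edgeR, adjusted p = 5.14e-06). Id2 was an enhanced fall (-0.83 ± 0.17), and Id1 a blunted fall (0.73 ± 0.19) whose call ended under 7 of the 22 alternatives (3.89e-06 to 0.0657). The whole list had 2 positive and 4 negative of 21 tested.

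The E-box CAGCTG, a preferred site of myogenic factors and one form of the general E-box CANNTG, was in 28 of 78 matched promoters of enhanced rises (35.9%), against 15.1% of promoters of tested genes and 16.1% of all. The general form was in 73.1% of the same 78, against 62.3% and 72.1%. The promoters of Musk (chr4:58285712-58286011, plus strand) and Klhl40 (chr9:121777357-121777656, plus strand) are printed as muscle examples, with CAGCTG in capitals at -68 and -10.
Musk: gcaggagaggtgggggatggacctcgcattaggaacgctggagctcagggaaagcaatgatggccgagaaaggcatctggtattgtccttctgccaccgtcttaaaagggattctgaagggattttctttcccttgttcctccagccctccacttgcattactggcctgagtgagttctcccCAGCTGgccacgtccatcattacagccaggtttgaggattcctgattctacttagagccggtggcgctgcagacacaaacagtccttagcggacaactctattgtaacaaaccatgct
Klhl40: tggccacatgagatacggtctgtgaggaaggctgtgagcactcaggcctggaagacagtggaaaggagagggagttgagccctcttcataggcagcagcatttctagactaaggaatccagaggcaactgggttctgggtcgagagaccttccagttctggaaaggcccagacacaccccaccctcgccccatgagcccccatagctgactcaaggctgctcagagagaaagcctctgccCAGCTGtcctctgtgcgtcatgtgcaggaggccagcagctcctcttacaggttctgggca

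A log2 interaction can differ in sign from the interaction in CPM when the genotypes start at different levels. This was so for 44 of the 1174 genes (3.75%). Of these, 36 were among the 112 enhanced rises. For Des the interaction was 0.52 on the log2 scale and -654 ± 49.8 (SE) in CPM, since WT cells added more CPM from a higher start. Myl1 (-277 ± 36.5 CPM), Chrnd (-29 ± 5.01 CPM) and Smyd1 (-29 ± 2.02 CPM) were of the same kind. So were Smpx (-15.2 ± 1.72 CPM), Dcn (-15.6 ± 3.175 CPM), Rrad (-9.49 ± 2.04 CPM) and Musk (-7.34 ± 2.47 CPM). Cacnb1 (-15.1 ± 3.78 CPM) and Jsrp1 (-6.05 ± 2.8 CPM) were as well. For these genes the word enhanced holds for the fold and not for the added amount.

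**Figure D5:**
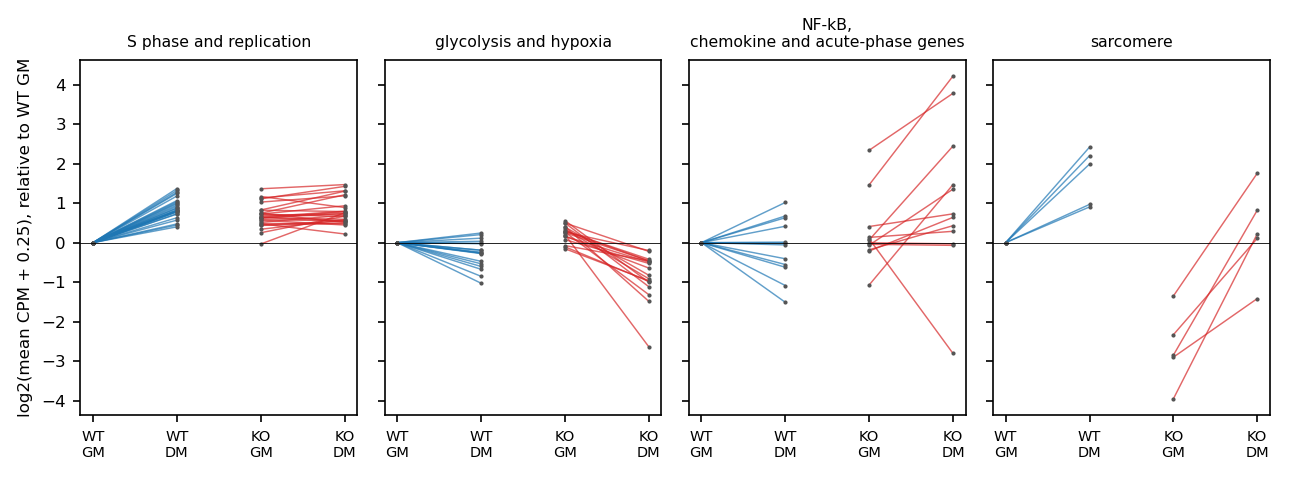
Mean level of the called members of 4 gene lists in the 4 groups, as log2(mean CPM + 0.25) relative to WT GM (y axis), 1 line per gene. Called replication genes are higher in KO-labelled GM than in WT GM for most members and level off in DM, and the called sarcomere genes start below WT in KO-labelled GM.

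Inflammatory genes had the highest count of positive calls among the 41 lists, which differ in size. The NF-kB, chemokine and acute-phase list had 10 of 31 tested members positive and 2 negative (median 0.703), divided between 4 gained, 4 enhanced, 3 lost and 1 reversed. The positive share was 32.3%, against 3.61% of all genes tested. It was higher in the small marker lists of macrophages and leukocytes (50% of 4 tested) and fibroblasts (33.3% of 6). In the interferon list it was 28.1% of 32. C3, the central complement protein, held 94.1, 108 and 122 CPM in WT GM and 96.8, 106 and 120.4 in WT DM. KO-labelled libraries held 82.3, 94.5 and 134 CPM in GM and 271, 294 and 267 in DM, an interaction of 1.43 ± 0.23 (edgeR, adjusted p = 0.00467). Ccl2, the main monocyte chemokine, reached 52.5 ± 1.90 CPM in KO-labelled DM from 9.91 ± 3.89, beside 9.44 ± 1.90 and 19.4 ± 1.33 in WT. Saa3, an acute-phase protein, had 22.7, 17.6 and 18.5 CPM in KO-labelled DM and at most 4.52 in any other library, and its call (adjusted p = 0.0179) ended without WT GM replicate 3 alone (adjusted p 0.0722, the top of a range of 3.01e-06 to 0.0722 over the alternatives). Tnfrsf9, a costimulatory receptor, went the other way (-1.67 ± 0.41).

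Interferon-response and antigen-presentation genes had 9 of 32 tested members positive and 0 negative (median 0.557; 15 positive and 0 negative at an unadjusted p below 0.05, and 9 and 0 by DESeq2 and by limma-voom). Tap1 and Tap2, which carry peptides to MHC class I, and Tapbp, which loads them, were all positive. Tap2 held 31.5, 31.5 and 34.9 CPM in WT GM and 37.4, 35.04 and 34.1 in WT DM, and went from 34.9, 39.4 and 47.97 to 80.96, 74.6 and 85.8 in KO-labelled cells (0.86 ± 0.15; edgeR, adjusted p = 0.000852). Tapbp rose in both, more in KO-labelled cells (0.81 ± 0.12), the guanylate-binding protein gene Gbp2 was a gained rise (1.43 ± 0.34), and Ifitm3, an antiviral membrane protein, a lost fall (0.80 ± 0.12).

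Markers of macrophages and leukocytes were measured beside these lists. Of 13 markers 6 were at 0 in all libraries, among them the leukocyte antigen Ptprc and the macrophage receptor Adgre1, and Itgam had 3 counts in all. Others were present: Csf1r, another macrophage receptor, ran from 6.19 to 10.5 CPM over the libraries (1039 counts in all). Cd68 ran from 0.817 to 3.29 CPM (216 counts in all). Of the 4 that were tested, 2 were positive, Cd14 and Lyz2. Their summed level was 34.4 to 47.9 CPM in WT GM, 19.3 to 22.3 in WT DM, 39.5 to 46.1 in KO-labelled GM and 32.4 to 40.4 in KO-labelled DM. Lyz2, lysozyme, went from 3.59 ± 0.419 to 8.32 ± 1.23 CPM in KO-labelled cells and lost its call under 10 of the 22 alternatives (highest adjusted p 0.104). Of the 6 tested fibroblast markers, Dcn, which was near the floor in KO-labelled GM, and Pdgfra were positive. The call of Pdgfra (0.42 ± 0.12) was lost with any 1 of 7 libraries left out (highest adjusted p 0.0819). No endothelial, epithelial or neural marker was called, but only 1, 1 and 2 of them were tested. The summed epithelial level was 13.5 to 14.5 CPM in KO-labelled DM and 2.43 to 4.61 in KO-labelled GM. In WT it was 1.84 to 5.01 CPM in DM and 1.18 to 1.95 in GM. The tested epithelial marker, Krt14, was called without both GM replicate 3 libraries (edgeR, adjusted p = 0.045).

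Signalling genes outside these groups were called in both directions. Of 20 tested genes of the IGF pathway 3 were positive and 1 negative, all of them binding proteins. Igfbp2 was the negative one and was reversed (-0.67 ± 0.12), whereas Igf1 (0.93 ± 0.69, adjusted p = 0.471) and Igf2 (0.89 ± 0.32, adjusted p = 0.135) were not called. Of 39 BMP, Wnt and Notch genes 4 were positive and 6 negative: Dll1, a Notch ligand, was an enhanced rise (1.60 ± 0.35), while Hey1, a Notch target, was reversed, and Hes1, another, was a lost rise (-0.76 ± 0.17). Neuronal-type cytoskeleton genes had 4 of 12 negative and 0 positive (median -0.911), namely the neuronal tubulin Tubb3 (-1.42 ± 0.17), the growth-cone protein Gap43 (-1.54 ± 0.28), the microtubule regulator Stmn2 (-0.91 ± 0.14) and Nes. Tubb3 held 53.8, 44.2 and 45.7 CPM in WT GM and 49.3, 49.2 and 49.8 in WT DM, and fell from 13.5, 17.2 and 13.9 to 5.78, 5.60 and 5.95 in KO-labelled cells. Tiparp, a target of the aryl hydrocarbon receptor, had 124 ± 12.9 CPM in KO-labelled GM and between 56.1 and 67.9 in the means of the other groups (-1.02 ± 0.15; edgeR, adjusted p = 0.000219).

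Some lists showed no called interaction. With 8.86% of all genes tested called, few calls would fall in lists of this size. Whether 0 differs from that share was not tested. Of 28 tested oxidative phosphorylation genes 0 were called (0 positive and 2 negative at an unadjusted p below 0.05, and 0 by DESeq2 and by limma-voom), with interactions between -0.258 and 0.161. Atp5b, an ATP synthase subunit, held 1389 and 1602 CPM in WT and 1269 and 1405 in KO-labelled cells (-0.06 ± 0.09). Of 20 tested dystrophin-complex genes 0 were called (1 positive and 1 negative at an unadjusted p below 0.05, and 0 by both other tools), and 3 were positive without both GM replicate 3 libraries. Other genes with strong responses did not differ by genotype label: Ptgs2, the inducible cyclooxygenase, had responses of -2.82 ± 0.13 in WT and -2.79 ± 0.13 in KO-labelled cells (0.03 ± 0.18, adjusted p = 0.939), and the cell cycle inhibitor Cdkn1a had 0.94 ± 0.07 and 1.19 ± 0.07 (0.24 ± 0.10, adjusted p = 0.148). A p above the threshold does not show that responses were equal.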

How the data were processed

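RNA-seq counts from 12 libraries in 4 groups were used as the authors deposited them: a single table that gives unnormalized, whole-number counts for 55416 Ensembl genes (52083 with a symbol); 4 empty columns were not used. The submitters' processing notes name the build GRCm39 and the tools RSEM 1.3.3, STAR 2.7.1a, DESeq2 1.40.2 and R 4.3.1. Which of them made the counts, with what annotation and strand setting, was not given in the sources used here. Overlapping genes and close paralogs may therefore share reads.

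In R 4.3.3 with edgeR 4.0.16, filterByExpr kept 13250 genes (99.91% of counts) and TMM scaling was applied. A robust quasi-likelihood model with a mean per group was fitted to all libraries, and the interaction was tested 2-sided with Benjamini-Hochberg adjustment over the 13250 genes, called below 0.05. Responses and gaps came from the same fit; an SE is the log2 value divided by the square root of F. CPM are given per library or as mean ± SD (n = 3). A count of 3, the floor that a count of 0 allows, was 0.26 to 0.346 CPM; it reflects counting error alone, as the reads carried no molecular identifiers and are not independent molecules.

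The 41 gene lists, the members and the rule for named genes (Mapk14, the 5 largest interactions per shape and direction at 10 CPM or more, up to 6 called members per list, and a panel) were chosen with earlier results of these data known. Not every gene that the rule selects is reported here. Lists are described by counts and medians, without a set test. Alternatives were DESeq2 1.42.0, limma 3.58.1 (voom), other scalings, filters and thresholds, a replicate block and leaving out libraries. The steps were tested on simulated data. Promoters came from RefSeq (GRCm38.p6), the first listed start per gene, matched by symbol.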

Additional observations from a re-analysis of the deposited data

Results flagged for a closer look

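The interaction term itself tests whether the response to medium differed between the genotype labels. By that test, 478 genes had a more positive and 696 a more negative response in the KO-labelled cells, and in 87 the responses, each called, had opposite signs in the 2 genotypes.

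The largest reversals were seen in 10 genes. The interaction (log2, edgeR) of the genes that rose in WT and fell in KO-labelled cells was -2.49 for Egr3, -2.01 for Hey1, -1.87 for Itga6, -1.74 for Cavin2 and -1.51 for Adamtsl1. For the genes that fell in WT and rose in KO-labelled cells it was 1.96 for Sned1, 1.83 for Clu, 1.80 for Fam43a, 1.58 for Atoh8 and 1.23 for Fat4.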

How the results depend on the processing

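Other scalings, DESeq2, limma-voom and other filters called 1130 to 1485 genes, against 1174. With 1 library left out, 293 (without WT DM replicate 2) to 969 (without KO-labelled GM replicate 3) positive and 400 to 951 negative calls were made, with the same 2 libraries at the ends. By shape these ranges were 52 to 134 reversed, 47 to 182 blunted, 170 to 499 lost, 239 to 770 gained, 139 to 520 enhanced and 1 to 34 with neither response called. Without both GM replicate 3 libraries there were 1373 positive and 1336 negative calls, of which 204 were reversed, 206 blunted, 657 lost, 984 gained, 600 enhanced and 58 neither. At adjusted p below 0.01 there were 147 positive and 287 negative calls. Of these, 72 were reversed, 34 blunted, 101 lost, 126 gained, 101 enhanced and 0 neither. With an interaction of at least 1 on the log2 scale, there were 131 and 137 calls, of which 29 were reversed, 10 blunted, 68 lost, 80 gained, 77 enhanced and 4 neither. Naming shapes by the signs and sizes of the responses alone gave 541 reversed, 190 blunted, 0 lost, 0 gained, 443 enhanced and 0 neither. Requiring responses of at least 1 gave 0 reversed, 7 blunted, 119 lost, 189 gained, 72 enhanced and 787 neither. Genes with neither response called numbered 26 by DESeq2 and 34 with no filter. The causes of these shifts were not tested, beyond the thresholds set by the alternatives themselves.

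With the replicate number as a replicate block, 666 positive and 921 negative calls were made (401 enhanced, 27 neither). Pairing was taken as shown only where every same-numbered pair had deviations correlated above 0.1, which held for 4 of 18 (-0.0851 to 0.186, against -0.259 to 0.21 for the 36 other pairs). Of the 18, 16 were above 0, against 10 of the 36, as were all 6 pairs among the replicate 3 libraries, and 4 of 12 libraries correlated best with their own number in all 3 other groups. These are hints from the data, and the labels give the shared number alone.

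Of 200 named genes tested, 176 were called, 115 of them under all 22 alternatives; of the 24 not called, 10 passed under at least 1. The median interaction of all genes moved at most to 0.0528. Depth limits genes near the floor of 3 counts, such as Smpx, Dcn and Rrad in KO-labelled GM and Sprr1a, Prr9 and Has1 in KO-labelled DM.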
